A study of Mus musculus with 16 samples.

Results

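The comparison set mouse embryonic stem cells stimulated with 4OHT for 8 hours (8h) against the same line uninduced (0h), with 2 arrays in each group, which is 4 of the 16 arrays in the series. The members were chosen by their labels alone, and 8h was paired with 0h by replicate number. All groups are the E14tg2a line carrying a tamoxifen-inducible fusion with constitutively active c-Raf, grown on gelatin-coated flasks in serum with LIF, a cytokine that sustains self-renewal. Cells at 0h had 24 hours of 250 nM PD173074, a small-molecule inhibitor of FGF receptors. Cells at 8h had the same pre-treatment and then 8 hours of 250 nM 4OHT, the active tamoxifen metabolite that switches the fusion on, with the inhibitor kept in the medium. Both groups therefore carry the fusion and the receptor block, the 8h cells for 8 hours longer, and the values show 1 engineered line only. Whether replicates are separate cultures is not stated in the labels, and every p-value given is a measure of spread among samples that may differ for technical reasons alone. Cells given 4OHT without the fusion were not analysed here, so an effect of 4OHT itself and one of c-Raf cannot be told apart. Nor can either be told apart from an effect of the 8 more hours in the inhibitor.

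The identity of an array is recorded in more than 1 place, and the records differ for 8 of the 16 arrays, including 2 of these 4 (0h replicate 2 and 8h replicate 1). Sample names were taken from the headings of the deposited value table. Every result rests on that choice, and the numbers under the other record stand beside the main counts.

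As background, c-Raf is the kinase that receives the signal from Ras and passes it through MEK to ERK. ERK phosphorylates transcription factors such as the ETS and SRF-bound ternary complex factors, and these switch on immediate early genes, followed by genes whose products shut the pathway down. In embryonic stem cells FGF4 acting through ERK is the known prompt to leave the naive state, and blocking that signal holds cells in self-renewal.

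Each array was scaled to its own 75th percentile, so a level is a log2 distance from that point and is comparable between arrays for 1 gene, not between genes. In what follows the 0h levels come before the 8h levels and replicate 1 before replicate 2, n is 2 arrays per group, and ± marks the standard error of the fitted 8h minus 0h difference in log2 units. A gene is called when its limma p, adjusted by the Benjamini-Hochberg method over all 15659 genes tested, is under 0.05 in a fit with the replicate number as a block. "Rose" and "fell" are kept for called genes. "At least" marks the fold of a gene whose probe stayed below the scanner's background threshold on both arrays of its dimmer group, or on 1 of them where that is said. It divides the brighter mean by the dimmer one, in which each array counts with whichever is the higher of that probe's signal and the dimmest signal placed well above background on it. An adjusted p beside such a bound belongs to the fitted difference, which takes signals below background as read. Such a gene entered the test only through groups where it was above background on both arrays, so its p is a description.

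On these 4 arrays 57.9% to 67.2% of spots passed the scanner's background threshold, and no spot was saturated. The 9 embryonic stem cell markers were well above background on every one of them, and the log2 of their summed signal was 9.52 to 9.59 at 0h and 9.60 to 9.81 at 8h. Of 10 fibroblast markers, kept as a check for other cells, 8 were tested, and Lum and Postn, a proteoglycan and a matrix protein of fibroblasts, were not above background in either group. The summed level of the 8 fibroblast markers tested went from 1.76 on both 0h arrays to 3.73 to 4.30 at 8h. Thy1, a surface protein of fibroblasts and many other cells, was the 1 member called and holds most of that sum at 8h. The median difference of the 8 was -0.40, and Dcn, a matrix proteoglycan (-1.54 ± 0.48), and Col6a1 (-0.48 ± 0.34) had differences below 0 and were not called.

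After 8 hours of stimulation expression differed widely from 0h. With the block 3293 genes were called (21.0%): 1321 genes were called higher at 8h (8.44% of those tested) and 1972 lower (12.6%). Without it 489 were called higher (3.12%) and 552 lower (3.53%), and every one of these was also called with the block in the same direction. The rises were the larger by the fitted difference: 240 of the 1321 reached 4-fold and 103 reached 8-fold, against 95 and 10 of the 1972 falls. These counts include genes whose fold is only bounded, among them 80 rises and 84 falls below background on both arrays of the dimmer group. The called rises had a median of 0.90 and the called falls one of -0.73, while the median over all genes tested was -0.04. The pairs differed in size, with a median rise of 1.103 in replicate 1 and 0.68 in replicate 2, and the difference was larger in replicate 1 for 1127 of 1321 rises and 1759 of 1972 falls. The correlation of levels across genes between 0h and 8h was 0.964 in replicate 1 and 0.985 in replicate 2, over genes that share an array and so are not independent. Both 8h arrays lay above both 0h arrays for 2963 genes (18.9%) and below them for 4567 (29.2%). The count rests on replicate 1 of each group: without 0h replicate 1 there were 641 calls in place of 3293, and without 8h replicate 1 there were 822. Without the block as well these became 134 and 179, in place of 1041. With the arrays named as attached to the scanner files there were 445, of which 390 were higher and 55 lower. The rule that picks genes by size or by list gave 105 called genes, and 35 of them lost the call without 0h replicate 1, 29 without 8h replicate 1, 4 without 0h replicate 2 and 0 without 8h replicate 2, with 0 reversals of direction. With the arrays named as attached to the scanner files 90 of the 105 could be tested, of which 0 kept the call and 51 had the opposite sign.

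**Figure D1:**
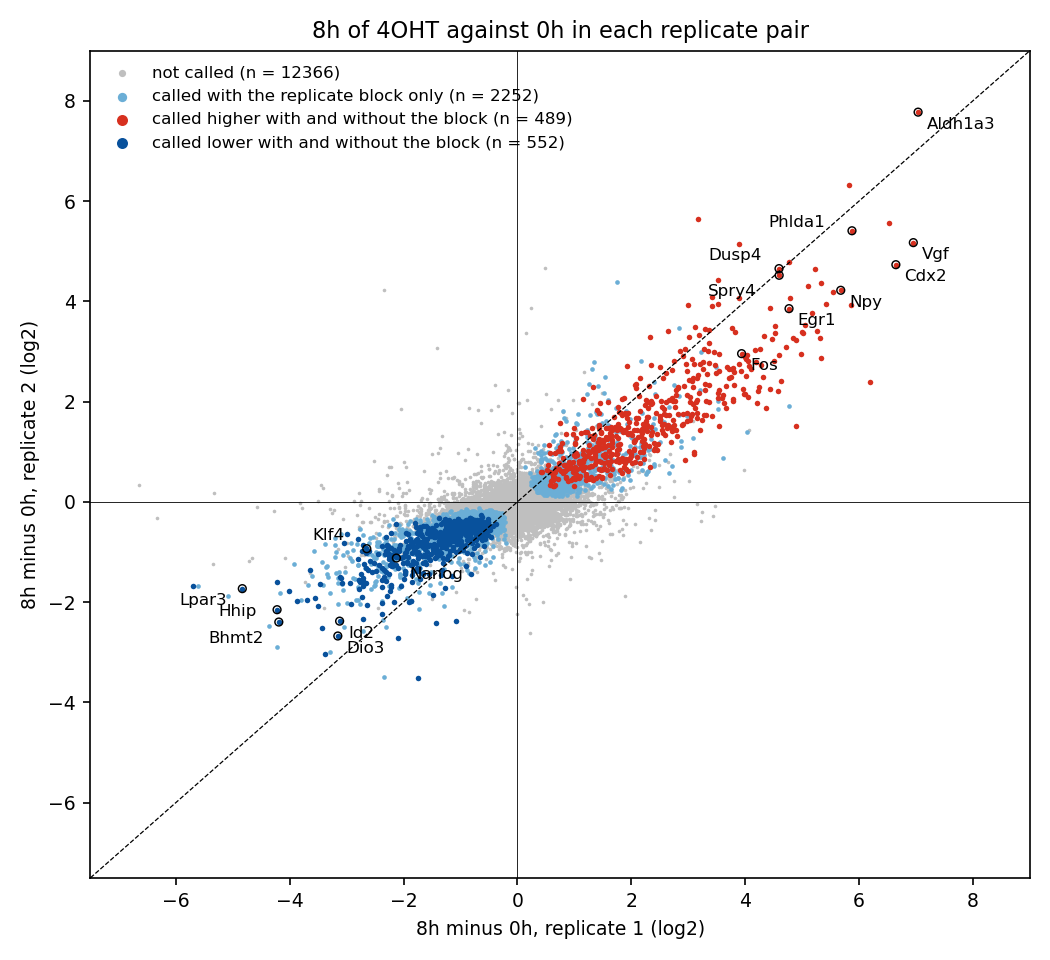
The difference between 8h and 0h (log2) in replicate 1 (x axis) and replicate 2 (y axis) for each of the 15659 genes tested, with the dashed line marking equal differences. Genes called with and without the replicate block (489 higher, 552 lower) lie mostly on the replicate 1 side of that line, and Nanog and Klf4 lie among the falls without being called.

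Most inhibitors of the pathway itself were called higher. Of 18 ERK feedback inhibitors tested, 12 were called higher (66.7%, against 8.44% of all genes tested) and 2 lower (11.1%, against 12.6%) with the block. Without it 8 and 1 were called, where the shares of all genes were 3.12% and 3.53%. The counts without the block in later lists are to be set beside these same shares. The list's median difference was 0.91. Sprouty and Spred proteins, which restrain Ras and Raf, included Spry4, at -2.50 and -2.97 at 0h and 2.10 and 1.55 at 8h. Spry4 thus rose by 4.56 ± 0.36 (23.6-fold, adjusted p = 9.8e-05), with both 8h arrays far above both 0h arrays. Spry2 went from 0.08 and -0.43 to 2.44 and 1.54 and rose by 2.17 ± 0.15 (adjusted p = 6.3e-05). Spred3 was not above background at 0h and rose at least 3.55-fold.

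The dual-specificity phosphatases, which remove phosphate from MAP kinases, divided by member. Dusp4, a nuclear phosphatase, lay at -1.41 and -2.67 at 0h and at 3.18 and 1.98 at 8h, a rise of 4.62 ± 0.20 (24.7-fold, adjusted p = 1.3e-05). Dusp6, the cytoplasmic phosphatase specific to ERK, was already readily measured at 0h, at 2.65 and 1.43, and reached 5.94 and 4.88. Its rise was 3.37 ± 0.24 (10.4-fold, adjusted p = 6.3e-05). Dusp2 rose 15.8-fold and Dusp5 5.92-fold, both nuclear phosphatases. Dusp9, another phosphatase acting on ERK, moved the other way: it fell by 0.71 on the log2 scale, from 3.17 and 3.42 to 2.45 and 2.73 (SE 0.13, adjusted p = 0.0058). Dusp7 was not called, at -0.12 and -0.25 at 0h and -1.01 and -0.37 at 8h.

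Readouts of pathway activity were also mostly called higher. A 10-gene MAPK activity score, a list used to read ERK output from expression, had a median difference of 2.77. In it 8 members were called higher (80.0%, against 8.44% of all genes tested) and 1 lower (10.0%, against 12.6%), and 6 and 0 without the block. Spry2, Spry4, Dusp4 and Dusp6 also stand among the feedback inhibitors above. Phlda1, a pleckstrin homology-like protein, went from -0.64 and -1.18 to 5.24 and 4.23 and rose by 5.64 ± 0.32 (49.98-fold, adjusted p = 3.5e-05). The 1 member called lower was Ccnd1, cyclin D1, which stood at 3.45 and 3.21 at 0h and at 1.77 and 2.73 at 8h (-1.09 ± 0.32, adjusted p = 0.039, with the block only).

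ETS factors, the family through which much of the transcriptional output runs, moved in both directions, with 5 of 20 higher and 4 lower (2 and 0 without the block) and a median difference of 0.04. Etv4 and Etv1, of the PEA3 group, had the largest rises. Etv4 lay at 2.55 and 1.03 at 0h and at 5.97 and 4.94 at 8h, a rise of 3.67 ± 0.28 (12.7-fold, adjusted p = 9e-05), and a second probe gave 4.06 ± 0.24. Etv1 rose 4.59-fold, from 0.79 and 0.10 to 2.86 and 2.44. Outside that group Etv6 rose by 1.21 ± 0.16 and Erf, an ETS repressor, by 0.53 ± 0.16, both with the block only. Etv5, the third PEA3 gene, rose least, by 0.40 ± 0.12, also with the block only.

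Calls in the cascade that carries the signal were made with the block only. Of 24 genes of the Ras to ERK cascade 3 were called higher and 1 lower, against background shares of 8.44% and 12.6%. Mapk3 (ERK1) stood at 4.25 and 4.07 at 0h and 4.30 and 4.13 at 8h. Braf, a Raf kinase, rose by 0.85 ± 0.13 with the block only, from 0.89 and 0.52 to 1.96 and 1.17.

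Immediate early genes were more often called higher than lower. Of 28 tested, 16 were called higher (57.1%, against 8.44% of all genes tested), 1 lower (3.57%, against 12.6%) and 11 not. Without the block 12 and 0 were called, and the median difference was 0.98. Egr1, a zinc-finger factor that is a standard mark of ERK activity, lay at 1.24 and 0.72 at 0h and at 6.01 and 4.58 at 8h. That was a rise of 4.31 ± 0.28 (19.9-fold, adjusted p = 5.1e-05), the groups being far apart. Its relative Egr2 was not above background at 0h and rose at least 8.37-fold. Egr4 fell with the block only, from -3.65 and -3.88 to -6.09 and -4.77 (-1.66 ± 0.46, adjusted p = 0.032, at least 2.09-fold with 1 of 2 arrays above background at 8h), and Egr3 was not called (-1.26 ± 0.46, adjusted p = 0.081).

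Among the AP-1 genes, Fos went from -2.64 and -2.87 to 1.30 and 0.08, a rise of 3.45 ± 0.32 (10.9-fold, adjusted p = 0.00025). Fosl1, the Fos relative known to need sustained ERK signalling, rose 9.33-fold, from -3.70 and -2.98 to 0.52 and -0.76. Fosl2 rose 7.36-fold by its brightest probe, while a second probe gave 1.07 ± 0.36 and was not called (adjusted p = 0.069). The Jun partners differed: Junb rose by 2.29 ± 0.27, while Jun stood at 1.84 and 1.82 at 0h and 1.80 and 1.78 at 8h. Fosb was not called either (0.22 ± 0.45, adjusted p = 0.78).

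Myc, the growth-promoting factor whose protein ERK stabilises, was at 0.50 and -0.91 at 0h and at 3.50 and 2.38 at 8h. It rose by 3.15 ± 0.27 (8.88-fold, adjusted p = 0.00017). Zfp36 and Zfp36l1, proteins that bind AU-rich messages and mark them for decay, rose 5.74-fold and 3.47-fold. Not called were Srf (-0.05 ± 0.13), which encodes the factor that binds CArG boxes, and the genes Ccn1 and Ccn2 (0.41 ± 0.16 and -0.61 ± 0.20), which encode matricellular proteins.

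**Figure D2:**
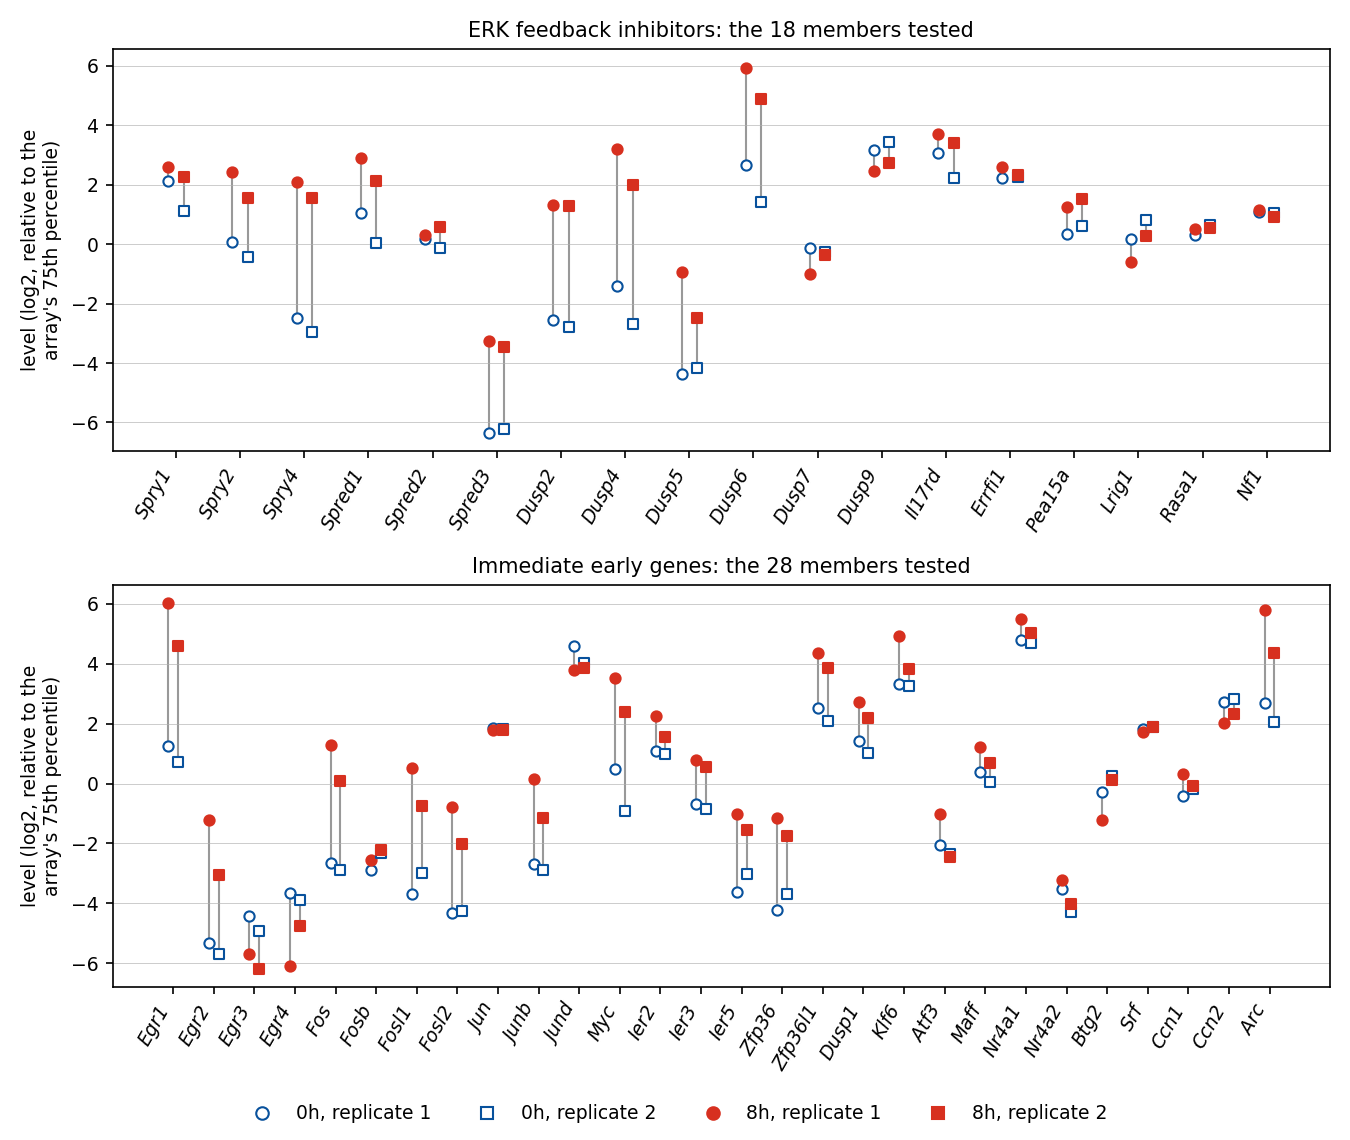
Levels (log2, relative to each array's 75th percentile) of the 18 ERK feedback inhibitors and 28 immediate early genes tested, with open blue symbols for 0h, filled red symbols for 8h, circles for replicate 1 and squares for replicate 2. Grey lines join the arrays of a pair: 12 of the upper 18 and 16 of the lower 28 genes were called higher, while Dusp9, Lrig1 and Egr4 were called lower.

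Promoters of genes that rose were searched for 3 motifs bound by SRF, AP-1 and EGR factors, and a few are shown to let the letters be set beside the levels. They are the CArG box for SRF, TGANTCA for AP-1 (the Fos and Jun proteins), and GCGTGGGCG for EGR factors, and each was looked for on both strands in the 250 bases before the start. None of the motifs contains another, and a match describes letters and is not a binding site. Of the 32851 promoters in the RefSeq table of build GRCm38.p6, which is not the build of the array annotation, 1.47% hold a CArG box, 6.75% TGANTCA and 0.536% GCGTGGGCG. The shares that follow count genes, not promoters, and a gene counts when any of its promoters holds the motif. Among genes tested with a promoter they were 1.51%, 5.88% and 1.09% of 12432. Among 363 genes called higher with and without the block they were 2.75%, 9.37% and 2.48%. Among 433 genes called lower in both they were 3.23%, 6.7% and 1.85%. Of 82 named or listed genes called higher in both, 56 had a promoter in the table. The 130 bases that end just before the start are given for 10 of them with a match in that window, 5′ to 3′ on the gene's strand, with the matching letters in capitals. Promoters on a single chromosome were left out of the printing, so a gene missing here may still hold a match.
Dusp5 (CArG box in 2 adjoining matches, chr19:53529015-53529144, plus strand): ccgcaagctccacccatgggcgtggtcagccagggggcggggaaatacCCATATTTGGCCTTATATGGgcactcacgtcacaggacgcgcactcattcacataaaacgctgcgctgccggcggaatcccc
Egr2 (CArG box, chr10:67537436-67537565, plus strand): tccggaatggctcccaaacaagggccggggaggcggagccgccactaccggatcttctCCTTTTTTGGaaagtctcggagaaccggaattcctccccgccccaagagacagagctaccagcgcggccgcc
Filip1l (CArG box, chr16:57549112-57549241, plus strand): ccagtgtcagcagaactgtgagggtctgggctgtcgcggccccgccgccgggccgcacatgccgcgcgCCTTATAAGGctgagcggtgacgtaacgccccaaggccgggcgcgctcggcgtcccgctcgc
Zfp36 (CArG box, chr7:28379229-28379358, minus strand): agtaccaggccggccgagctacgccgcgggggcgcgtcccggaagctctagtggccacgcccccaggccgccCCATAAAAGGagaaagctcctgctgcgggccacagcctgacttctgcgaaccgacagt
Anxa2 (TGANTCA, chr9:69453553-69453682, plus strand): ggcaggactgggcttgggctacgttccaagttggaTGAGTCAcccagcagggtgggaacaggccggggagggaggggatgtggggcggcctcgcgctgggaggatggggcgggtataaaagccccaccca
Il11 (TGANTCA, chr7:4778142-4778271, minus strand): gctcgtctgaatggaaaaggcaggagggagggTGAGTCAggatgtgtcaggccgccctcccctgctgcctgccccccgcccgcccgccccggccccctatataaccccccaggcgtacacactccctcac
Plaur (TGANTCA, chr7:24462353-24462482, plus strand): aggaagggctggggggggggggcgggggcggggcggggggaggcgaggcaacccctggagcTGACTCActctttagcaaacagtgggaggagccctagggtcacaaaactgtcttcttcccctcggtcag
Zfp36l1 (TGANTCA, chr12:80113014-80113143, minus strand): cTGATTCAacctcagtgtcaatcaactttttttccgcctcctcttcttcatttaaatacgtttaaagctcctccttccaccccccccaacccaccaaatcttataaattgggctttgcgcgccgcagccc
Tgfb1 (GCGTGGGCG, on the other strand, chr7:25686872-25687001, plus strand): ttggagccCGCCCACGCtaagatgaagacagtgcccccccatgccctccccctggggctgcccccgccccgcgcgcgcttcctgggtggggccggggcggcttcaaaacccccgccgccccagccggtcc
Wnt6 (GCGTGGGCG, on the other strand, chr1:74771762-74771891, plus strand): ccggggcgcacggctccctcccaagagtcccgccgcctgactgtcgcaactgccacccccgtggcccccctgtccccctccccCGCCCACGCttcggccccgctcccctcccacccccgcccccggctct

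Of the 15 largest rises among genes called in both fits, Dusp4 and Phlda1 are described above, and most of the others lie outside the pathway. Aldh1a3, a retinaldehyde dehydrogenase that makes retinoic acid, was not above background at 0h (-5.66 and -7.20) and reached 1.38 and 0.57, at least 71.6-fold higher (adjusted p = 3.2e-05). Vgf, which encodes a secreted neuropeptide precursor known to respond to growth factors, was measured in both groups, at -2.78 and -2.17 and then 4.18 and 2.999. It rose by 6.06 ± 0.48 (66.9-fold, adjusted p = 0.00011). Cdx2, a caudal-type homeobox factor of trophoblast and posterior embryo, was below background at 0h (-6.28 and -5.92) and lay at 0.37 and -1.19 at 8h, at least 27.4-fold higher (adjusted p = 0.00029).

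Other secreted and surface proteins stood beside these. Npy, a neuropeptide, went from -3.40 and -2.72 to 2.28 and 1.502 and rose 30.9-fold. Esam, an adhesion molecule of endothelial junctions, went from -4.67 and -4.21 to 0.56 and 0.43 and rose 30.6-fold. Among genes below background at 0h, Grm6, a metabotropic glutamate receptor, rose at least 23.0-fold, and Col6a5, a collagen VI chain, at least 16.7-fold. Filip1l, a filamin A interacting protein, rose at least 29.8-fold, and its CArG box is among the sequences above. Gpr142, a G protein-coupled receptor, rose at least 9.03-fold.

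The next genes in size were measured in both groups. Nlrc4, an inflammasome sensor, had the smallest p among these 15 rises with the block only (adjusted p = 6.5e-06, and 0.0092 without it). It stood at -3.08 and -4.38 at 0h and at 1.69 and 0.40 at 8h. Btbd17, a BTB domain protein, rose 28.8-fold and Ubash3b, a phosphatase that acts on tyrosine kinases, 26.2-fold. In all 15 of the largest rises both 8h arrays lay above both 0h arrays. That holds for all 489 genes called higher in both fits, from which these were picked, so it adds no support.

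The 15 largest falls were smaller than the 15 largest rises. Hhip, a membrane protein that binds and sequesters Hedgehog ligands, lay at 0.59 and 0.49 at 0h and at -3.63 and -1.66 at 8h. It fell by 3.19 on the log2 scale (SE 0.48, 9.10-fold, adjusted p = 0.0027), and its second probe gave -3.80 ± 0.38. Dio3, the deiodinase that inactivates thyroid hormone, went from -1.48 and -0.92 to -4.63 and -3.59 (-2.91 ± 0.20, adjusted p = 6e-05). Id2, an inhibitor of basic helix-loop-helix factors and a known BMP target, went from 3.16 and 3.18 to 0.04 and 0.80, a 6.73-fold fall (-2.75 ± 0.25, adjusted p = 0.00024).

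Membrane proteins were several of the rest, and the next 4 were above background on 1 of 2 arrays at 8h. Bmpr1b, a type I BMP receptor, fell at least 5.45-fold by its brightest probe, and a second probe gave -2.26 ± 0.30. Lpar3, a lysophosphatidic acid receptor, fell at least 4.36-fold, from -2.37 and -2.38 to -7.20 and -4.11. Scnn1a, a subunit of the epithelial sodium channel, fell at least 6.63-fold and Pcdh19, a protocadherin, at least 4.06-fold. Lrrn1, a leucine-rich repeat membrane protein, was below background at 8h and fell at least 2.88-fold.

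Enzymes and nuclear factors made up most of the others. Bhmt2, a homocysteine methyltransferase, went from -2.53 and -2.12 to -6.72 and -4.51, with 1 of 2 arrays above background at 8h, and fell at least 5.19-fold. Hes3, a Notch-family repressor, fell at least 4.00-fold and also had 1 of 2 arrays above background at 8h. Foxa1, a pioneer factor of endoderm, was below background at 8h and fell at least 3.02-fold. Rarres1, a retinoic acid responsive gene, fell at least 3.75-fold and Cyp4f14, a cytochrome P450, at least 2.25-fold. The remaining members of the 15 carry no functional name: 1700016D06Rik fell at least 3.42-fold, with 1 of 2 arrays above background at 8h, and 1700020A23Rik at least 3.92-fold, its 0h arrays lying far apart at -1.37 and -4.84. In all 15 both 8h arrays lay below both 0h arrays, as in all 552 genes called lower in both fits, from which they were picked.

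**Figure D3:**
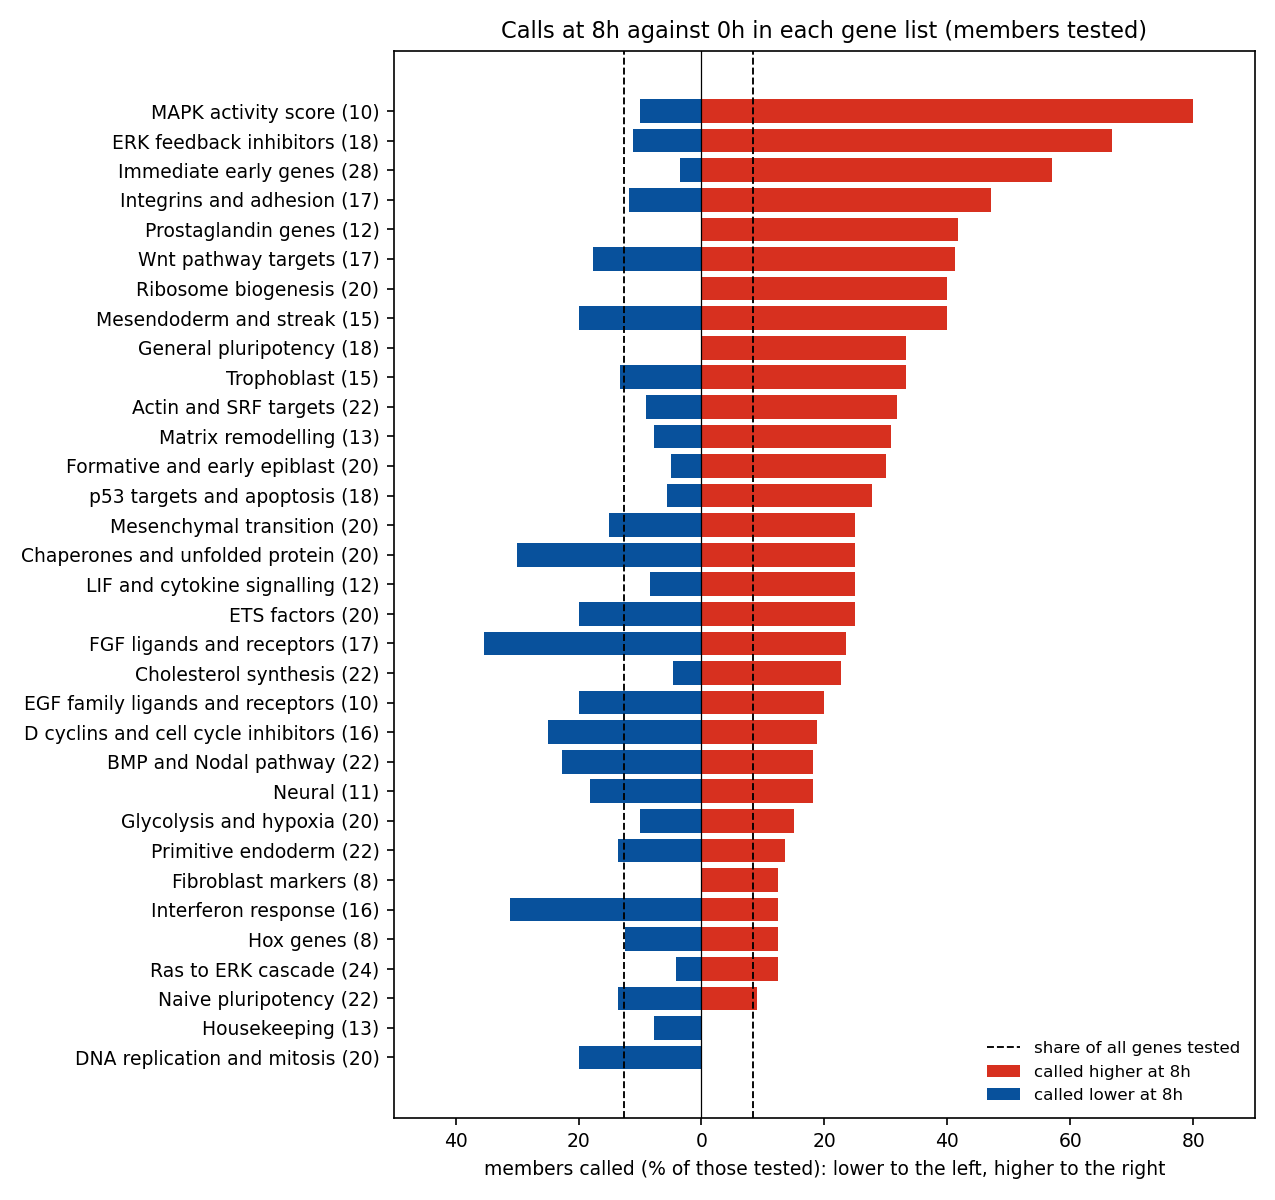
Share of the members tested (number in brackets) that were called higher (red, to the right) or lower (blue, to the left) at 8h in each of 33 gene lists, in percent, with dashed lines at the shares over all genes tested (8.44% higher, 12.6% lower). The MAPK activity score (8 of 10), ERK feedback inhibitors (12 of 18) and immediate early genes (16 of 28) have the highest shares of rises, and DNA replication and mitosis and housekeeping genes have none.

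Naive pluripotency genes had a median difference of -0.62, but few were called: 2 of 22 higher and 3 lower with the block (1 and 1 without it), shares close to those of all genes. Nanog, a core factor of the naive state, stood at 4.48 and 4.59 at 0h and at 2.36 and 3.47 at 8h. Both 8h arrays were below both 0h arrays, yet the difference of -1.62 ± 0.75 was not called (adjusted p = 0.16), and a second Nanog probe gave 0.11 ± 0.18. Klf4 (5.04 and 4.37, then 2.40 and 3.43) was also not called (-1.79 ± 0.60, adjusted p = 0.061), nor was Prdm14 (-2.02 ± 0.67, adjusted p = 0.059), both naive-state regulators. For each of these 3 genes the 8h level was lower in replicate 1.

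Called among the naive genes was Fgf4, the ligand of the blocked receptors, which stood at 6.66 and 6.73 at 0h and at 4.80 and 5.47 at 8h (-1.56 ± 0.35, 2.96-fold lower, adjusted p = 0.014). Tbx3 and Dppa3, naive-state markers, were called lower only with the block (-1.24 ± 0.37 and -1.10 ± 0.29). Gbx2, a homeobox gene known to help maintain naive cells and to respond to signalling, rose from -0.60 and -1.87 to 2.76 and 1.57 (10.6-fold, adjusted p = 3.7e-05). Klf5, also of the naive state, rose by 1.15 ± 0.16 with the block only. Esrrb (-0.59 ± 0.37, adjusted p = 0.30) and Zfp42 (0.27 ± 0.25, adjusted p = 0.50) were not called.

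General pluripotency genes had a median difference of 0.23. With the block 6 of 18 were called higher (33.3%, against 8.44% of all genes tested) and 0 lower (against 12.6%), and 1 higher without it. Pou5f1 (Oct4) stood at 5.66 and 5.67 at 0h and 6.65 and 6.00 at 8h (0.66 ± 0.24, adjusted p = 0.086), and Sox2 at 4.20 and 4.05 and then 4.36 and 4.25 (0.18 ± 0.12, adjusted p = 0.34).

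Genes of the formative and early epiblast, the stage that follows the naive one, had a median difference of 0.76. Of 20 tested 6 were called higher (30.0%, against 8.44% of all genes tested) and 1 lower (5.0%, against 12.6%), and 2 and 0 without the block. Pou3f1 (Oct6), a factor of the early epiblast, lay at 0.44 and 0.02 at 0h and at 3.45 and 2.46 at 8h, a rise of 2.73 ± 0.32 (6.61-fold, adjusted p = 0.00085). Fgf5, the classical marker of that stage, went from -3.40 and -5.12 to -2.04 and -2.33, a rise of 2.07 ± 0.33 (adjusted p = 0.0034). Otx2, a driver of the transition, rose by 0.88 ± 0.16 (adjusted p = 0.0073), from 4.43 and 4.09 to 5.48 and 4.80. Without the block neither was called (adjusted p = 0.092 for Fgf5 and 0.16 for Otx2). Dnmt3a, a de novo DNA methyltransferase, rose by 0.78 ± 0.13 and its relative Dnmt3b was not called (0.73 ± 0.27, adjusted p = 0.083).

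Primitive streak and mesendoderm genes split. Of 15 tested 6 were called higher and 3 lower (5 and 1 without the block), with a median difference of 0.13. Evx1, a homeobox gene of the posterior streak, went from -2.57 and -3.09 to 0.41 and -0.48 and rose 6.93-fold (2.79 ± 0.27, adjusted p = 0.00027). Sp5, a Wnt-responsive zinc-finger factor, rose 8.16-fold, from -2.58 and -3.18 to 0.69 and -0.39. T (Brachyury) was below background at 0h and rose at least 2.68-fold (adjusted p = 0.0057, and 0.079 without the block). Mesp1, an early mesoderm factor, rose at least 1.90-fold from below background, and Eomes, a T-box factor, 2.28-fold.

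On the other side, Gsc, the organiser gene goosecoid, fell with the block only, from -2.70 and -1.30 to -7.06 and -3.78 (-3.42 ± 0.75, adjusted p = 0.014, at least 5.05-fold with 1 of 2 arrays above background at 8h). Wnt3, the ligand that starts the streak, fell at least 2.12-fold to below background, and Nodal by 0.78 on the log2 scale (SE 0.22, adjusted p = 0.036, with the block only). Of 6 mesendoderm markers 5 were tested, with a summed level of -0.86 and -0.43 at 0h and 1.08 and 0.29 at 8h. Of these 4 were called higher and 1 lower, so the sum does not describe each member. Mixl1 was not above background in either group and is not in the sum.

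In the trophoblast list 5 of 15 genes were called higher (33.3%, against 8.44% of all genes tested) and 2 lower (13.3%, against 12.6%). Without the block 5 and 0 were called, and the median difference was 0.12. Hand1, a helix-loop-helix factor of trophoblast and mesoderm, went from -5.22 and -5.04 to -2.37 and -2.03, at least 7.24-fold higher with 1 of 2 arrays above background at 0h (2.93 ± 0.29, adjusted p = 0.00034). Tead4 rose 3.76-fold and Krt18, a keratin of simple epithelia, 3.51-fold. Gata2 fell with the block only, from -1.07 and -0.61 to -4.36 and -2.43, and Gata3 was not called (0.12 ± 0.39, adjusted p = 0.86). Of 8 defining trophoblast markers 2 were called, Cdx2 and Hand1, while Elf5, Plac1 and Tpbpa were not above background in either group. The summed level of the 5 trophoblast markers tested was 4.03 and 5.03 at 0h and 3.57 and 4.52 at 8h. It was lower at 8h in both pairs although Cdx2 and Hand1 rose, so the sum does not describe each member.

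Of 22 primitive endoderm genes 3 were called in each direction (13.6% each, against 8.44% higher and 12.6% lower over all genes tested). None was called without the block, and the median difference was -0.09. Gata6 stood at -4.08 and -4.13 at 0h and -3.47 and -4.01 at 8h (0.36 ± 0.40, adjusted p = 0.57), and Gata4 was not called (-0.61 ± 0.53). Sox17 was not called by its brightest probe (-0.25 ± 0.39, adjusted p = 0.69), while a second probe gave -1.93 ± 0.25 (adjusted p = 0.0014). Pdgfra, the usual sorting marker of this lineage, was below background in both groups.

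**Figure D4:**
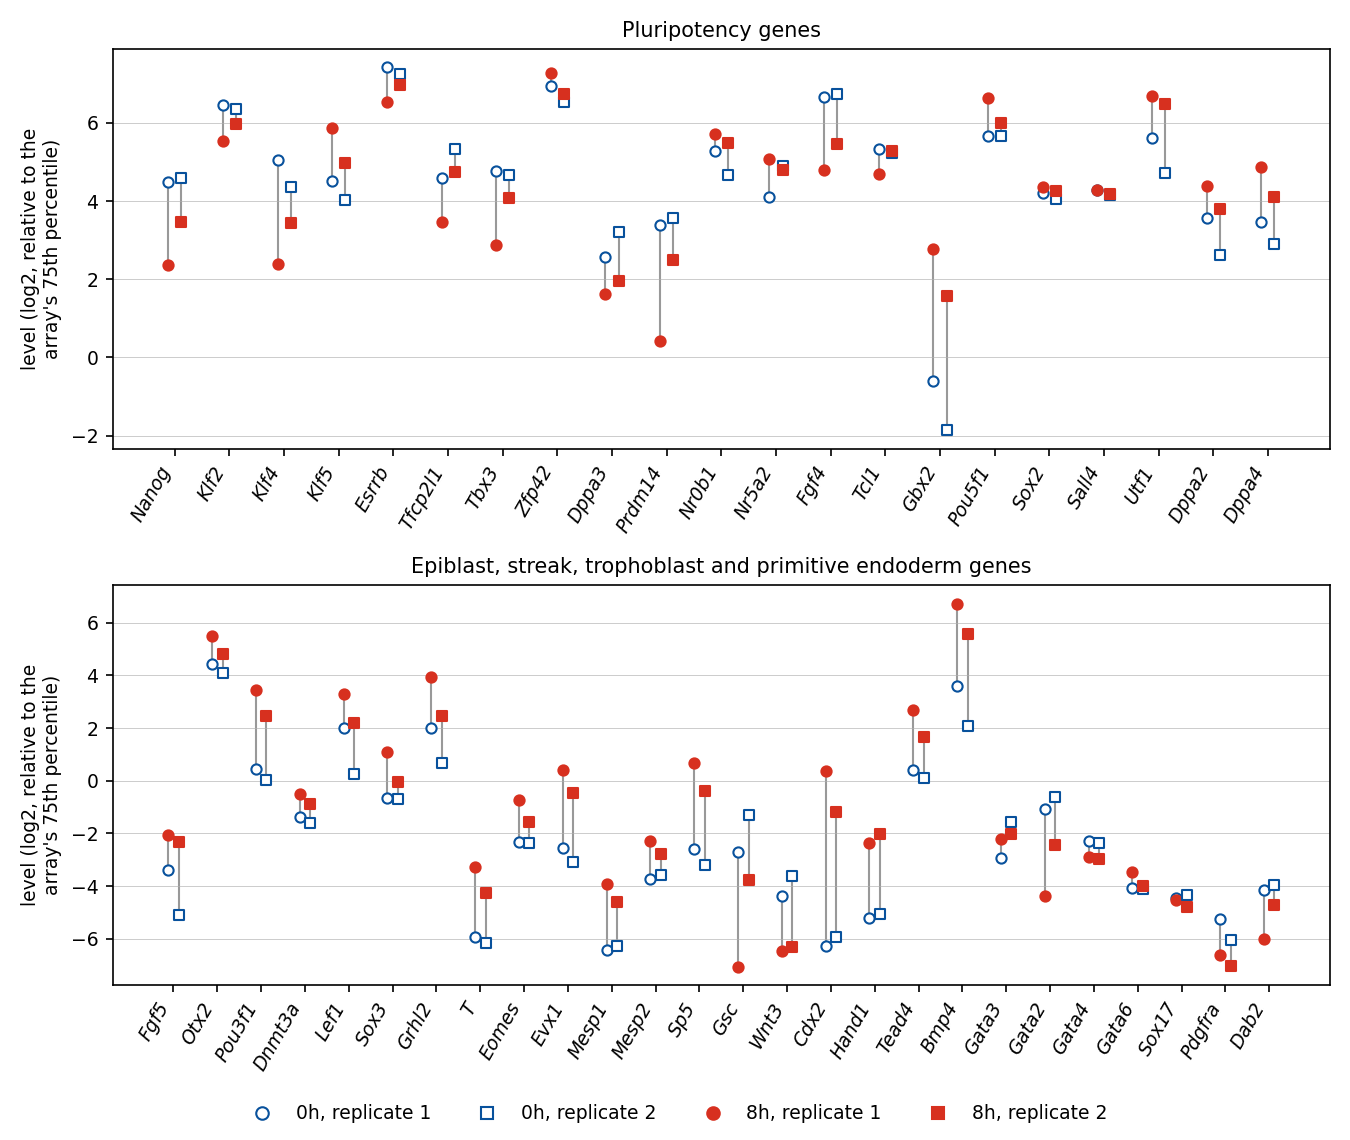
Levels (log2, relative to each array's 75th percentile) of pluripotency genes (upper panel) and of epiblast, streak, trophoblast and primitive endoderm genes (lower panel) at 0h (open blue) and 8h (filled red), circles for replicate 1, squares for replicate 2. Nanog and Klf4 are lower at 8h by more in replicate 1 than in replicate 2, Pou5f1 and Sox2 lie close together, and Cdx2, Hand1 and Bmp4 lie apart from their 0h levels in both pairs.

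Ligands and receptors of the growth factor families changed one by one. In the EGF family 2 of 10 genes were called higher and 2 lower (2 and 0 without the block). Hbegf, an EGF receptor ligand, went from 1.84 and 1.74 to 4.99 and 3.42 and rose 5.33-fold (adjusted p = 0.0039). Areg, another such ligand, rose at least 1.75-fold from below background. Egfr itself was called lower with the block only by its brightest probe (-0.89 ± 0.15), and its other probes, at -0.46 ± 0.19 and -0.18 ± 0.19, were not called.

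In the FGF list 6 of 17 genes were called lower (35.3%, against 12.6% of all genes tested) and 4 higher (23.5%, against 8.44%), with 2 of each without the block. Besides Fgf4, Fgf3 fell at least 2.11-fold to below background. Fgfr4 rose 4.42-fold, from -1.46 and -1.86 to 0.83 and 0.13 (2.14 ± 0.16, adjusted p = 8e-05) by its brightest probe, and another probe gave 1.13 ± 0.56 and was not called (adjusted p = 0.19). By contrast Fgfr1 and Fgfr2 were called lower with the block only (-0.89 ± 0.22 and -0.63 ± 0.09). The other Fgfr1 probes gave -0.05 ± 0.16 and -0.78 ± 0.21, and a second Fgfr2 probe gave -1.99 ± 0.33. Fgfbp1, a secreted protein that releases FGFs from the matrix, rose 3.63-fold.

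In the BMP and Nodal list 4 of 22 genes were called higher (18.2%, against 8.44% of all genes tested) and 5 lower (22.7%, against 12.6%). Without the block 3 and 1 were called, and the median difference was -0.38. Bmp4 had the largest rise, from 3.62 and 2.07 to 6.73 and 5.56 (3.30 ± 0.21, 9.88-fold, adjusted p = 5.1e-05). The Id genes, which BMP signalling is known to induce, went opposite ways: Id1 rose from 2.78 and 2.52 to 5.45 and 4.26 (2.20 ± 0.31, adjusted p = 0.002) and Id2 fell, as given above. Id3 was not called (0.40 ± 0.43), and Id4 was called lower with the block only (-1.71 ± 0.44). Tgfb1 rose 3.45-fold. Lefty1, a Nodal target and antagonist, stood at 5.92 and 5.95 at 0h and at 2.19 and 4.36 at 8h and was not called (-2.66 ± 1.18, adjusted p = 0.14).

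Wnt pathway genes had a median difference of 0.58. Of 17 tested 7 were called higher (41.2%, against 8.44% of all genes tested) and 3 lower (17.6%, against 12.6%), and 5 and 2 without the block. The ligands Wnt6 and Wnt7b rose, Wnt6 from -2.66 and -2.11 to 1.27 and 0.49 (9.62-fold, adjusted p = 0.0015) and Wnt7b 3.60-fold. The antagonists moved apart, as Wif1 rose 4.17-fold and Dkk1 fell at least 1.57-fold to below background. Cdx1, a caudal-type target of the pathway, rose 2.02-fold, and Axin2, the usual reporter of it, was not called (0.05 ± 0.31, adjusted p = 0.93).

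Adhesion and matrix genes were more often called higher than lower. Of 17 integrin and adhesion genes 8 were called higher (47.1%, against 8.44% of all genes tested) and 2 lower (11.8%, against 12.6%). Without the block 3 and 1 were called, and the median difference was 0.34. Itga3, a laminin-binding integrin chain, lay at -1.83 and -1.24 at 0h and at 1.32 and 0.54 at 8h, a rise of 2.46 ± 0.35 (5.51-fold, adjusted p = 0.002). Itga1 rose at least 3.83-fold from below background, Itgb1, the shared beta chain, rose 2.91-fold and Itgb5 fell 1.98-fold. Of 13 matrix remodelling genes 4 were called higher (30.8%, against the same 8.44%) and 1 lower (7.69%, against 12.6%), and 2 and 1 without the block. Plaur, the urokinase receptor, went from 2.07 and 1.65 to 5.87 and 4.24 (9.20-fold, adjusted p = 0.00032). Mmp9, a gelatinase, rose at least 6.57-fold, and Timp2, an inhibitor of such enzymes, fell 3.16-fold.

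Of 20 genes of mesenchymal transition 5 were called higher and 3 lower (3 and 0 without the block), with a median difference of 0.16. Cdh2 (N-cadherin) rose 4.00-fold, from -0.23 and -0.48 to 2.06 and 1.22, while Cdh1 (E-cadherin) stood at 4.14 and 4.34 and then 4.32 and 4.30. Twist1 rose 5.71-fold and Hmga2, a chromatin protein, 5.87-fold, yet Snai1 and Snai2, the transition's repressors of E-cadherin, were called lower with the block only (-1.01 ± 0.22 and -1.58 ± 0.24). Thy1, the 1 fibroblast marker called, went from 1.44 and 1.40 to 4.26 and 3.67, while the collagens Col1a1 and Col1a2 were not called (-0.66 ± 0.26 and 0.15 ± 0.35). The part of other cell types in these changes was not tested.

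In the list of actin and SRF targets 7 of 22 were called higher (31.8%, against 8.44% of all genes tested) and 2 lower (9.09%, against 12.6%). Without the block 4 and 1 were called, and the median difference was 0.08. The rises were of annexins, S100 proteins, Lmna and Tagln2, and no actin gene was called. S100a6, a calcium-binding protein, went from 3.48 and 3.98 to 8.19 and 7.08 (15.02-fold, adjusted p = 0.00019). Its relative S100a4 was not called by its brightest probe (0.99 ± 0.35, adjusted p = 0.076), and a second probe gave 4.19 ± 0.76 (adjusted p = 0.0067). Anxa2 rose 2.67-fold and Lmna, which encodes lamins A and C, 2.93-fold. Actb was not called (0.37 ± 0.13), and Myl9, a myosin light chain, fell 2.97-fold.

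Of 12 prostaglandin genes 5 were called higher (41.7%, against 8.44% of all genes tested), 0 lower (against 12.6%) and 7 not. Without the block 3 and 0 were called. The lowest difference was that of Hpgd, which encodes the enzyme that inactivates prostaglandins (-0.9998 ± 0.44, adjusted p = 0.14, not called). Ptgs2, the inducible cyclooxygenase, was below background at 0h (-5.63 and -5.62), lay at -0.08 and -1.44 at 8h, and rose at least 21.5-fold. The prostaglandin E2 receptor gene Ptger2 went from -4.66 and -5.15 to -1.14 and -1.21 and rose at least 13.3-fold, with 1 of 2 arrays above background at 0h (adjusted p = 4e-05), and the prostacyclin receptor gene Ptgir rose at least 1.49-fold. Of 12 LIF and cytokine genes 3 were called higher (25.0%, against 8.44% of all genes tested) and 1 lower (8.33%, against 12.6%). Without the block 1 of each was called. Il11, a LIF-family cytokine, rose 3.34-fold and Socs1, a cytokine signalling inhibitor, fell 1.60-fold. Of 16 interferon response genes 5 were called lower (31.2%, against 12.6% of all genes tested) and 2 higher (12.5%, against 8.44%). Without the block the 1 call was Ddx58 (RIG-I), which rose 4.25-fold, from 2.45 and 1.95 to 4.74 and 3.83.

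Cyclin D genes moved in opposite directions. Of 16 D cyclins, kinases and inhibitors, 3 were called higher (18.8%, against 8.44% of all genes tested) and 4 lower (25.0%, against 12.6%). Without the block 1 of each was called. Ccnd2 rose 6.05-fold, from -1.50 and -2.24 to 1.00 and 0.45 (adjusted p = 0.0006), in the opposite direction to Ccnd1. Cdkn1b (p27) fell 1.58-fold, and Cdkn1a (p21) was not called (-0.70 ± 0.25, adjusted p = 0.078). In DNA replication and mitosis 4 of 20 were called lower and 0 higher, none without the block, the largest being Rrm2 at -0.54 ± 0.11. Mki67 was not called (0.21 ± 0.11).

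Genes of cell death included both rises and uncalled members. Of 18 p53 targets and apoptosis genes 5 were called higher (27.8%, against 8.44% of all genes tested) and 1 lower (5.56%, against 12.6%). Without the block 4 and 0 were called, and the median was -0.01. Pmaip1 (Noxa) went from 0.15 and -0.12 to 3.22 and 2.28 (2.74 ± 0.20, 6.66-fold, adjusted p = 8e-05), and Bcl2l11 (Bim) rose 5.90-fold, from -2.18 and -2.04 to 0.96 and -0.05. Both encode BH3-only proteins, which promote death, and 3 other genes of that kind were not called: Bmf (-0.92 ± 0.36), Bik (-0.48 ± 0.20) and Bbc3 (-0.15 ± 0.17). Perp rose 2.78-fold, and Bcl2, an inhibitor of death, 1.58-fold. The p53 targets Mdm2 and Bax were not called (0.05 ± 0.16 and -0.07 ± 0.11).

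Chaperone and stress genes were called in both directions. Of 20 tested 5 were called higher (25.0%, against 8.44% of all genes tested) and 6 lower (30.0%, against 12.6%). Without the block 1 and 3 were called. The falls were of endoplasmic reticulum proteins. Hspa5 (BiP), the main chaperone there, went from 6.03 and 5.80 to 5.03 and 5.25 (-0.77 ± 0.14, adjusted p = 0.0056), and Calr and Manf differed by -0.88 ± 0.14 and -0.55 ± 0.10. Xbp1, a factor of that response, rose 1.66-fold. Atf4, Asns, Trib3 and Ddit3, which belong to the amino acid response, were called higher with the block only (by 0.34 to 1.58 on the log2 scale).

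No gene of the next 3 lists, of growth and metabolism, was called without the block. Ribosome biogenesis genes had 8 of 20 called higher (40.0%, against 8.44% of all genes tested) and 0 lower (against 12.6%), with a median difference of 0.28. In cholesterol synthesis 5 of 22 were called higher (22.7%, against 8.44%) and 1 lower (4.55%, against 12.6%), with a median of 0.25. For glycolysis and hypoxia 3 of 20 genes were called higher and 2 lower, against 8.44% and 12.6% of all genes tested, and the median was 0.07. Gapdh stood at 8.97 and 9.01 at 0h and 9.24 and 8.89 at 8h (0.08 ± 0.10, adjusted p = 0.63). Of 13 housekeeping genes 1, Gusb, was called (-0.43 ± 0.10, lower), which is 7.69% against 12.6% of all genes tested.

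Levels on the other arrays place 8h within the course, given without a test because those comparisons share arrays. Egr1 was highest at 2h (6.85 and 5.88) and lower at 8h (6.01 and 4.58), and Fos likewise went from 2.51 and 1.69 at 2h to 1.30 and 0.08. Dusp6 and Spry4 lay at 8h near their 4h levels, and both were higher there than in cells that never had the inhibitor: the DMSO arrays read 3.98 and 3.84 for Dusp6, against 5.94 and 4.88 at 8h. In contrast Aldh1a3 was still climbing, from -1.70 and -1.56 at 4h through 1.38 and 0.57 at 8h to 2.52 and 1.85 at 24h. Not every rise cleared the DMSO levels, and some overlapped them. Pou3f1 read 2.67 and 2.87 with DMSO and 3.45 and 2.46 at 8h. Etv1 read 2.56 and 2.59 with DMSO and 2.86 and 2.44 at 8h. Myc read 2.39 and 2.11 with DMSO and 3.50 and 2.38 at 8h.

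Some genes stood highest at 8h of all groups. T read -4.75 and -5.93 at 4h, -3.26 and -4.26 at 8h and -4.20 and -5.92 at 24h. Fgf5 lay at -2.04 and -2.33 at 8h and at -3.69 and -4.36 at 24h. Wnt6 (1.27 and 0.49) and Npy (2.28 and 1.502) were also highest at 8h, and at 24h read -1.57 and -0.88 for Wnt6 and -1.40 and -2.67 for Npy. For these genes both 8h arrays lay above both 24h arrays except T, where the groups overlap by a narrow margin.

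A few of the falls went from 0h towards or past the levels of the DMSO arrays. Dio3 read -4.15 and -3.76 with DMSO, -1.48 and -0.92 at 0h and -4.63 and -3.59 at 8h. Hhip read -3.55 and -3.20 with DMSO, 0.59 and 0.49 at 0h and -3.63 and -1.66 at 8h, where replicate 2 was still above both DMSO arrays. At 24h both genes lay below their DMSO levels, Dio3 at -5.51 and -5.22 and Hhip at -5.82 and -4.43. Id2 passed below its DMSO levels (1.63 and 2.26), to 0.04 and 0.80. Nanog, at 2.36 and 3.47 at 8h, was lower still at 24h.

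**Figure D5:**
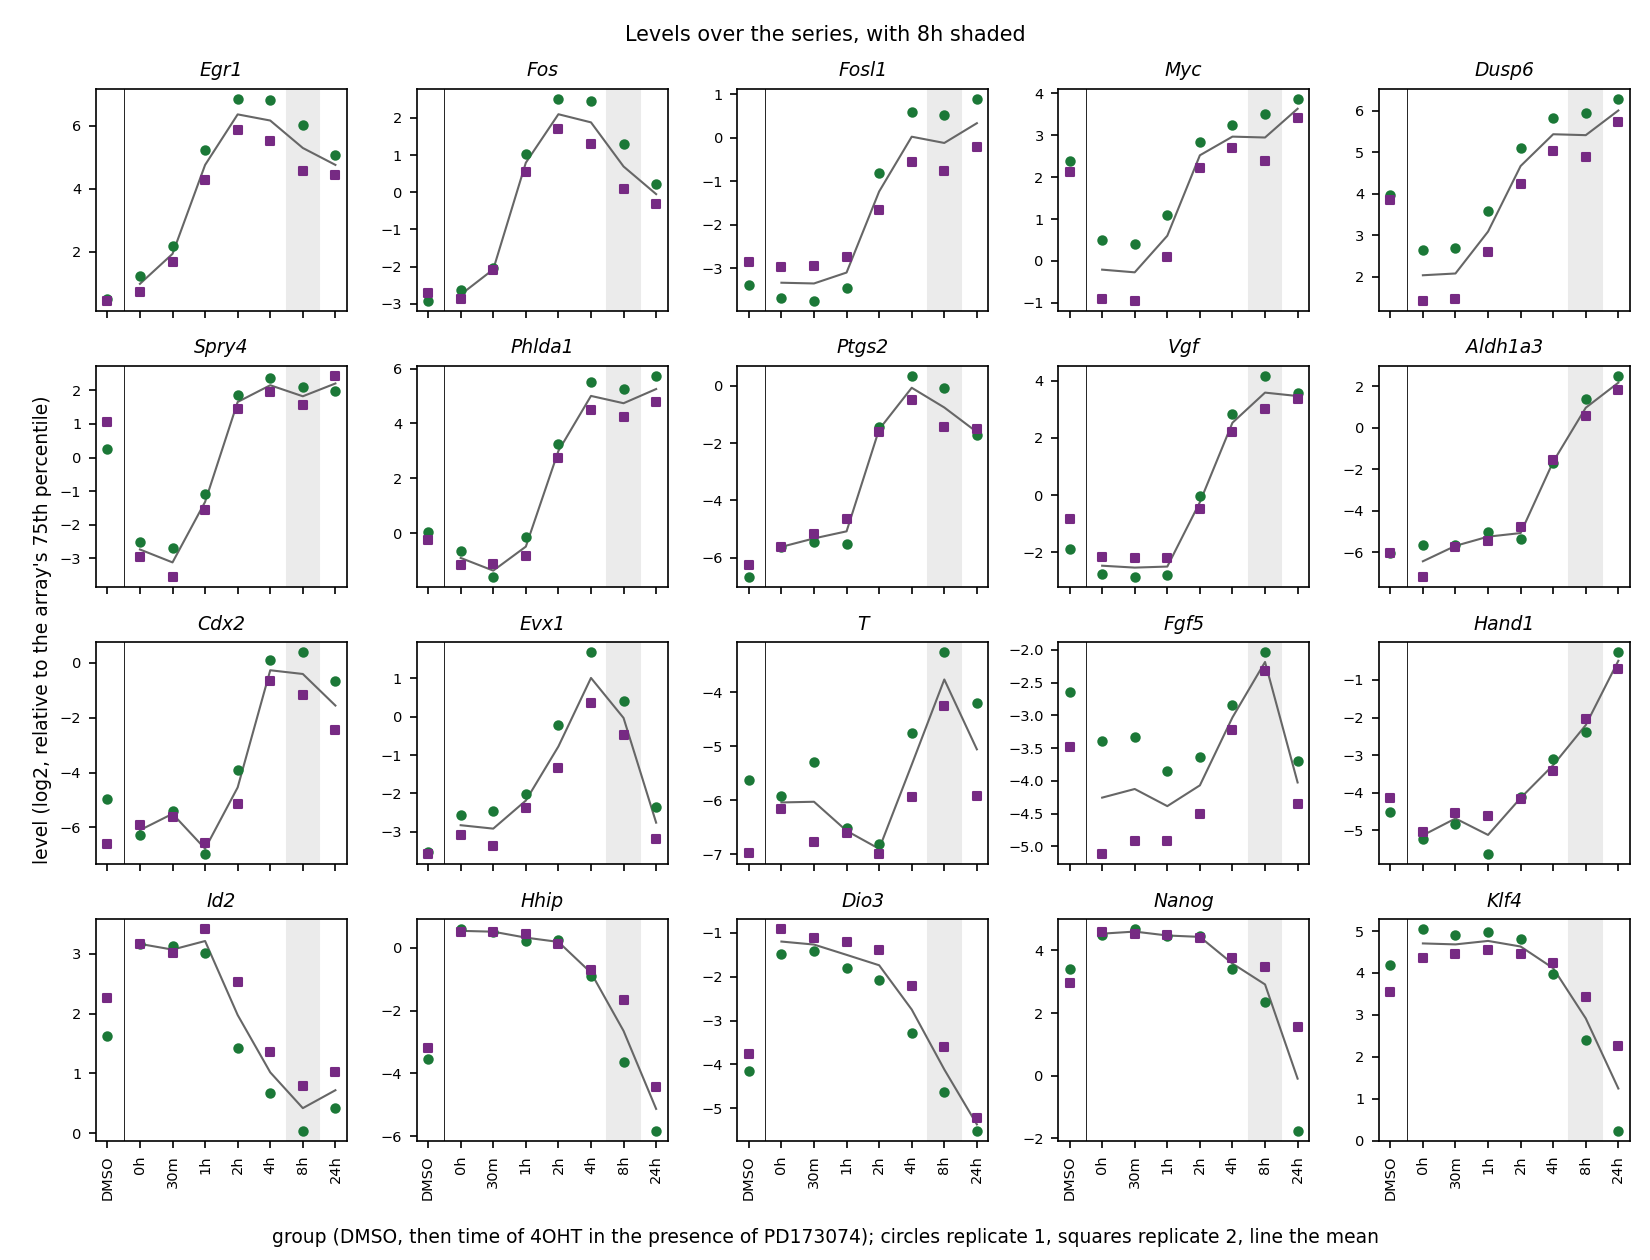
Levels (log2, relative to each array's 75th percentile) of 20 genes in all 8 groups, DMSO first and then by time of 4OHT, with circles for replicate 1, squares for replicate 2, a line through the means and 8h shaded. T and Fgf5 peak at 8h, Egr1 and Fos peak at 2h, and Hhip and Dio3 fall from 0h towards or past their DMSO levels.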

How the data were processed

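RNA from 16 cell samples was hybridised in 1 colour to Agilent mouse arrays, 8 groups of 2 replicates. Per the file headers the scanner software (Feature Extraction 11.0.1.1, probe annotation on the mm9 build) gave each spot's background-corrected processed intensity, which the authors deposited unscaled between arrays. The labels name Cy5, while the files hold a green channel. The authors' value table holds the same intensity values, rounded, and every column matched 1 scanner file at 100% of spots (tolerance 0.6%, next best at most 4.99%). Array identity was taken from its headings.

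From these the log2 of the processed intensity minus each array's 75th percentile was computed, without control and outlier spots (147 to 201 on the 4 arrays). Probes were named by accession through RefSeq (GRCm38.p6): 27656 of 55681 matched 1 gene and 28025 none. A gene took its brightest probe, and 15659 of 20972 genes were tested, those whose probe passed the scanner's background threshold on both replicates in 1 group or more. Of these 9 lacked a value on one of the 4 arrays. limma 3.58.1 (R 4.3.3) fitted 8 group means over all 16 arrays with the replicate number as a block (7 residual degrees of freedom), and 8h was contrasted with 0h (two-sided, Benjamini-Hochberg). The method was tested on simulated data.

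The block follows the pairing by replicate number, which is also the slide. Same-numbered arrays deviated together: the correlation of deviations was 0.477 for 0h with 8h, and 0.327 to 0.659 over the 28 pairs of groups. With 1 array of each group per replicate, slide and replicate cannot be told apart. The number of arrays limits the precision.

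Of 865 called genes with another testable probe, 2 (Atxn7l1 and Cd300lf) had one called in the opposite direction. Genes named are the 15 largest rises and 15 largest falls called with and without the block and well above background on both arrays of the brighter group, up to 6 such members of each of 33 lists, and a set of genes given whether called or not. Some genes that this rule names are not reported here. Genes named beyond these were picked after their values were seen. Members and lists were chosen with earlier results of these data known, and lists share genes. Promoters were searched in the RefSeq table. Alternatives were other scalings, filters, probe rules, identities and fits. The normexp correction (offset 50) used median spot signals, because mean signals were not among the columns used.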

Additional observations from a re-analysis of the deposited data

How the results depend on the processing

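The count of calls moved with the fit and with array identity. In place of 3293 there were 1041 without the replicate block, 1229 with a 2-fold minimum, 445 with samples as attached to the scanner files, 249 with only the arrays of 0h and 8h in the fit, and 0 with only these arrays and no block, a fit chosen after seeing the data (2155 genes had an unadjusted limma p under 0.05 there). Leaving out 1 array at a time gave 641 to 3800 calls. Leaving it out without the block too, also chosen after seeing the data, gave 134 without 0h replicate 1, 438 without 0h replicate 2, 179 without 8h replicate 1 and 1971 without 8h replicate 2, where 35, 47, 32 and 99 of the 105 called genes picked by the naming rule kept their call. The lone array left in such a group is assumed to vary like those of the other groups. Other scalings, filters, probe rules and the authors' value table gave 2559 to 3417. Most of the 105 were chosen for a call in both fits, so the block changed 3 of them (Fgf5, Otx2 and T). Of all 216 called members of the lists 130 were called with the block only.

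With only the arrays of 0h and 8h 54 of the 105 kept their call, and with normexp background correction 99 did. With samples as attached to the scanner files the signs of 51 named genes turned. The log2 differences (8h minus 0h) that became negative were Anxa2 -0.22, Bmp4 -1.21, Ccnd2 -1.04, Ddx58 -0.30, Dusp2 -0.048, Dusp4 -1.50, Dusp5 -0.52, Dusp6 -1.07, Egr1 -0.89, Egr2 -1.62, Eomes -0.19, Etv1 -0.50, Etv4 -0.74, Evx1 -1.48, Fgf5 -0.50, Fgfbp1 -0.997, Filip1l -0.71, Fos -0.92, Fosl1 -0.31, Fosl2 -0.36, Gbx2 -0.81, Hbegf -0.92, Hmga2 -0.0729, Id1 -0.52, Itgb1 -0.44, Myc -1.15, Nlrc4 -0.64, Otx2 -0.43, Phlda1 -0.89, Plaur -0.93, Pmaip1 -0.16, Pou3f1 -0.36, Ptger2 -0.10, S100a10 -0.0113, Sp5 -0.27, Spry2 -0.55, Spry4 -0.93, Tead4 -0.15, Tgfb1 -0.18, Twist1 -1.65, Wif1 -0.026 and Xbp1 -0.041. Those that became positive were Bmpr1b 0.13, Dio3 0.029, Foxa1 0.27, Hes3 0.14, Itgb5 0.11, Lpar3 0.90, Map2 0.0013, Rarres1 0.79 and Timp2 0.53. The signals are the same in that setting and the names given to the arrays differ. With the names the genes that pass the filter also changed (15839 in place of 15659). The replicate block then no longer follows the slide.

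With 2 arrays a group, a gene below background has only a bound, and 80 rises and 84 falls were below it on both arrays of the dimmer group. Further called genes were above background on 1 of 2 arrays of that group, and those named are also given as bounds. The uncalled named genes Klf4, Nanog and Sox17 passed the threshold in at least 1 alternative (lowest adjusted p = 0.035, 0.049 and 0.028).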

Other observations

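Of 11 neural genes 2 were called higher (18.2%, against 8.44% of all genes tested) and 2 lower (18.2%, against 12.6%), 0 and 1 without the block, with a median difference of 0.05. Tubb3, neuronal beta-tubulin, went from 2.94 and 3.47 at 0h to 1.55 and 2.33 at 8h (-1.26 ± 0.16, adjusted p = 0.0011, with the block only), and Map2, a neuronal microtubule protein, was called lower in both fits (-0.86 ± 0.20). Sox11, a factor of neural progenitors, was called higher with the block only (1.17 ± 0.20), and a second probe gave 1.41 ± 0.22. Of 20 Hox genes 8 were tested, with 1 called in each direction (12.5%, against 8.44% higher and 12.6% lower over all genes tested) and none without the block.

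Several genes were read differently by different probes on the same arrays. Nanog was at -1.62 ± 0.75 by its brightest probe and 0.11 ± 0.18 by another, Sox17 at -0.25 ± 0.39 and -1.93 ± 0.25, S100a4 at 0.99 ± 0.35 and 4.19 ± 0.76, and Fzd7, a Wnt receptor, at 0.72 ± 0.16 and -0.54 ± 0.22. These genes were picked after their values were seen. Lef1, a Wnt effector, was not called by its brightest probe (1.63 ± 1.91), while another gave 1.84 ± 0.28 (adjusted p = 0.0028).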
